A study of Mus musculus with 6 samples.

Results

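The regions described here are COUP-TFII binding peaks that stood in the list called from male (XY) mouse mesonephroi and not in the list called from female (XX) mesonephroi, and that lay at the end of a single gene. They were selected on the 2 peak lists themselves. A peak was kept when it was autosomal, had no base in common with any XX peak, and had its centre within 1 kb of the start or end coordinate of exactly 1 protein-coding gene (RefSeq, GRCm38.p6, the assembly of mm10). Of 9846 XY peaks, 2363 had no base in common with an XX peak, and 2311 of these were autosomal. Among the 2311, 1042 had no protein-coding gene end within 1 kb, 147 were near the ends of more than 1 gene, and 1122 (48.6%) met the rule. The 1122 peaks belonged to 1099 genes, of which 1076 had 1 such peak and 23 had 2.

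ChIP-seq with a rabbit antibody against COUP-TFII was done on chromatin from pooled mesonephroi of CD-1 embryos at E14.5, with 2 samples from XX embryos, 2 from XY embryos and 2 of input pooled from both. All groups shared the strain, stage and tissue, and no allele or treatment differed between them. Whole mesonephroi hold many cell types, so the labels do not say which cells gave a peak. Each sex has 1 list over its 2 samples, with positions only, all 300 bp wide. There is therefore no spread between replicates and no peak height, the depth behind each list is unknown, and a peak absent from the XX list may be unbound or below the threshold of the authors' peak calling. A test below sets classes of peaks from these lists against each other and is no replicated comparison of the sexes. Intervals are exact (Clopper-Pearson, 95%) and cover counting error only.

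COUP-TFII, the product of Nr2f2, is an orphan nuclear receptor of mesenchymal cells. It binds DNA at hexamers of the AGGTCA type, often arranged in pairs, and can recruit corepressors. The mesonephros carries the Wolffian duct, which gives rise to the male reproductive tract, and the Müllerian duct, which gives rise to the female tract. In female embryos COUP-TFII in the mesonephric mesenchyme is known to be needed for regression of the Wolffian duct. WNT, FGF, BMP and retinoic acid signals between mesenchyme and epithelium shape both ducts.

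The DNA under 8 of these peaks is given as examples. For each, the bases given are the part of the peak that falls before the gene start within the RefSeq start window (GRCm38.p6), read 5′ to 3′ on the gene's strand. Capitals mark AGGTCA or GGGTCA on either strand (TGACCT and TGACCC are their reverse complements). Tnks2 is shown as a peak centred almost on the gene start, Ctnnb1 and Etv5 as signalling genes far from any XX peak, and Bmp6, Etv1 and Igf2r as signalling genes with a hexamer. Grsf1 and Sgta are shown because 2 hexamers lay under their peaks. Tnks2 was taken by rule as 1 of the 4 peaks nearest to a gene end, and the other 7 were chosen after their sequences had been seen. The 8 are therefore not typical: AGGTCA or GGGTCA was in 25.4% of the 193 XY-only start windows searched below, beside 26.0% of all windows. Peak bases after the gene start are not shown, though 58.7% of XY-only peaks at starts were centred over 150 bp downstream.
Tnks2, chr19:36833982-36834231, plus strand: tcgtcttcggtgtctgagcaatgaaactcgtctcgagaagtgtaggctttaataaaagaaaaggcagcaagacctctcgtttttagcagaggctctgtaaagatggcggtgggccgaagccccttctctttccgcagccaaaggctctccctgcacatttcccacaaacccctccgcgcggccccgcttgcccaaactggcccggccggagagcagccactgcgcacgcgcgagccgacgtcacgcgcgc
Ctnnb1, chr9:120933150-120933353, plus strand: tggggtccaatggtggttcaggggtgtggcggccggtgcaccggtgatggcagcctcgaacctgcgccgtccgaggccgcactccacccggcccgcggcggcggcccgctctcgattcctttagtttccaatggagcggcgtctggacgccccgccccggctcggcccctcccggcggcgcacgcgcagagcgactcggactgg
Etv5, chr16:22439653-22439820, minus strand: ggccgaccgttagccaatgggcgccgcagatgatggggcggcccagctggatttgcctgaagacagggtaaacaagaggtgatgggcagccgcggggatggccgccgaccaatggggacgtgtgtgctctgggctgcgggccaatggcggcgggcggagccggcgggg
Bmp6, chr13:38345466-38345715, plus strand: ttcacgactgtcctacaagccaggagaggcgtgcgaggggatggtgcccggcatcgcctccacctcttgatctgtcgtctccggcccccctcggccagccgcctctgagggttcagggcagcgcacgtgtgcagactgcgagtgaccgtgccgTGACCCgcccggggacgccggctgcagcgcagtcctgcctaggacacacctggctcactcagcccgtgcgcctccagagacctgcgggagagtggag
Etv1, chr12:38779832-38780081, plus strand: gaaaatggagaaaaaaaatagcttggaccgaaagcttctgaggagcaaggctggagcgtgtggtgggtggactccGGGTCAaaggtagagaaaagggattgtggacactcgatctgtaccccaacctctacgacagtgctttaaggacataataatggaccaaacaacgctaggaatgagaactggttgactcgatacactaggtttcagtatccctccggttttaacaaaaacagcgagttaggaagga
Igf2r, chr17:12769731-12769956, minus strand: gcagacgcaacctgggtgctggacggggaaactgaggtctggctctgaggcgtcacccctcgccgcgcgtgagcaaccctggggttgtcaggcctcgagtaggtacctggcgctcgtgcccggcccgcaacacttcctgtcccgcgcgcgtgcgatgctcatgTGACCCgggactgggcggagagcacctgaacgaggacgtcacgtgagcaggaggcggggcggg
Grsf1, chr5:88676173-88676421, minus strand: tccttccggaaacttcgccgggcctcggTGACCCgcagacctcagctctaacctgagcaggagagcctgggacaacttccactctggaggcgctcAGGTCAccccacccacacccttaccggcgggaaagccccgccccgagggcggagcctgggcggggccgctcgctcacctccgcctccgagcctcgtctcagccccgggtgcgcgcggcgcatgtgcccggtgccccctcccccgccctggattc
Sgta, chr10:81060272-81060521, minus strand: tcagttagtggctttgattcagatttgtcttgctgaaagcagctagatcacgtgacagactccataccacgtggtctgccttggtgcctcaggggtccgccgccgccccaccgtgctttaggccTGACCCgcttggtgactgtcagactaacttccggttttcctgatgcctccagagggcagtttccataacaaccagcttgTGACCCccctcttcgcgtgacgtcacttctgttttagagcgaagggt

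Tnks2 encodes a tankyrase, Ctnnb1 beta-catenin, Grsf1 an RNA-binding protein and Sgta a small co-chaperone. Neither hexamer was found in the stretches of Tnks2, Ctnnb1 and Etv5. Bmp6 and Igf2r each held 1 TGACCC and Etv1 1 GGGTCA. The Grsf1 stretch held 1 TGACCC and 1 AGGTCA, and that of Sgta held 2 TGACCC. A match is a run of letters and not a measured binding site.

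Most genes had no such peak, and peaks common to both lists were the larger class. Of all 4879 autosomal XY peaks at single gene ends, 23.0% (21.8 to 24.2) were XY-only, and 3757 were shared with the XX list (at least 1 bp in common). The mirror class, XX-only peaks at single gene ends, held 1004 of 4744 XX peaks (21.2%). Counted by gene, 5.32% of 20665 autosomal protein-coding genes had an XY-only peak at an end, 4.81% had an XX-only peak and 17.6% had a shared peak. These shares follow from the rule and are descriptions. They move with the definition of a shared peak: 810 XY-only peaks (16.6%) were left when peaks under 1 kb apart were taken as shared, and 1695 (34.7%) when only centres within 100 bp did. The peaks just inside the 1 kb window were those of Mtfr1 at 999 bp, Jarid2 at 997 bp, Fcrlb at 996 bp, Brd1 at 995 bp and Rnf150 at 992 bp. Just outside it were XY-only peaks at Wdcp at 1001 bp, Dek at 1005 bp, Bok at 1006 bp, Purb at 1009 bp and Nfkb1 at 1015 bp.

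The XY-only peaks at gene ends were peaks at gene starts. RefSeq start windows gave a strand for the genes of 910 of the 1122 peaks, and 890 of the 910 (97.8%, 96.6 to 98.7) were nearest to the start. The remaining 20 were nearest to the other end, among them Lor, a cornified envelope protein gene, Fcrlb and Mrpl58. Shared peaks (2953 of 3005, 98.3%) and XX-only peaks (778 of 801, 97.1%) were placed the same way by these counts. The odds ratios of the XY-only peaks were 0.784 (0.457 to 1.39) against shared and 1.32 (0.685 to 2.55) against XX-only peaks, and neither test passed the threshold (two-sided Fisher's exact test, Benjamini-Hochberg over 8 tests of position, adjusted p = 0.703 for both). With a window of 2.5 kb the second did pass the same exact test, at 97.0% against 93.4% (odds ratio 2.30, adjusted p = 7.18e-04).

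XY-only peaks lay further into the gene than the other classes. Their centre was inside the gene for 882 of 1122 (78.6%, 76.1 to 81.0), against 73.1% of shared peaks and 67.0% of XX-only peaks. The odds ratio was 1.35 against shared peaks (1.15 to 1.59, Fisher's exact test, adjusted p = 8.44e-04) and 1.81 against XX-only peaks (1.48 to 2.21, adjusted p = 1.64e-08). Where the strand was known, the median XY-only centre was 194 bp downstream of the start (quartiles 43.0 and 427), against 147 bp for shared and 132 bp for XX-only peaks. The lower quartile of XX-only peaks was at -111 bp, upstream of the start. Peaks centred over 150 bp downstream made up 58.7% of XY-only, 49.4% of shared and 47.4% of XX-only peaks at starts. The difference from shared peaks did not pass the threshold of the exact test when at least 50% of each peak had to be in common (odds ratio 1.20, adjusted p = 0.0527) or with a 500 bp window (1.21, adjusted p = 0.108). The difference from XX-only peaks passed under each definition tried.

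**Figure D1:**
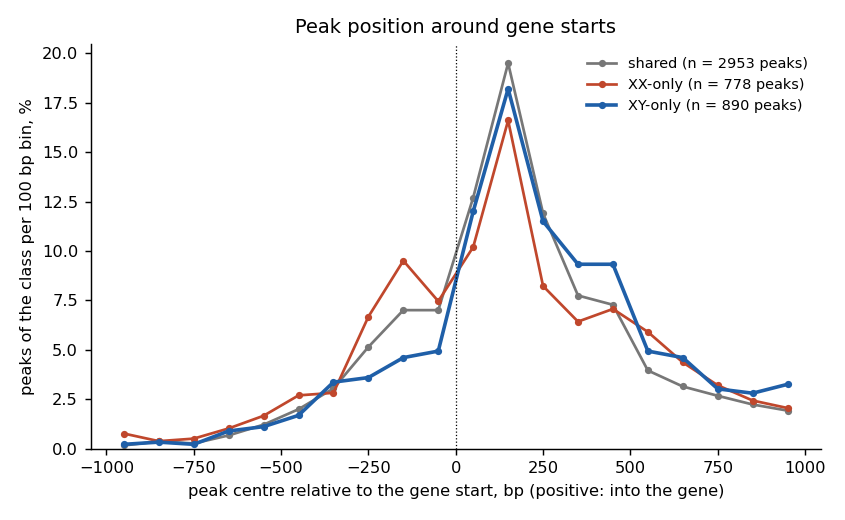
Share of peaks of each class (vertical axis, %) in 100 bp bins of the distance from peak centre to gene start (horizontal axis, bp, positive into the gene), for 890 XY-only, 2953 shared and 778 XX-only peaks at starts of known strand. XY-only peaks reach 18.2% in the bin from 100 to 200 bp downstream and fall below both other classes in the 200 bp before the start.

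The median distance from peak centre to the gene end, in either direction, was 271 bp for XY-only, 223 bp for shared and 243 bp for XX-only peaks. Peaks within 150 bp of a start made up 27.5% of XY-only, 34.4% of shared and 31.4% of XX-only peaks at starts, a description without a test. The XY-only centre was within 100 bp of the end for 194 peaks (17.3%), against 19.0% of shared peaks (odds ratio 0.891, 0.744 to 1.06, Fisher's exact test, adjusted p = 0.547) and 16.8% of XX-only peaks (1.03, 0.818 to 1.30, adjusted p = 0.817). The end of a gene that is not protein-coding was also within 1 kb of 184 XY-only peaks (16.4%), against 16.9% and 15.7% (Fisher's exact test, adjusted p = 0.817 for both). The nearest to a gene end were those of Chac1, a glutathione-degrading enzyme, and Trpc4ap at 1 bp, and of Tmed9, a cargo receptor of the secretory pathway, and Tnks2 at 2 bp. The median length of the genes was 29.5 kb for XY-only, 28.2 kb for shared and 27.9 kb for XX-only peaks.

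XY-only did not always mean that the XX list was empty nearby. The gap to the nearest XX peak was under 1 kb for 312 of the 1122 peaks (27.8%), between 1 and 10 kb for 92 (8.20%), between 10 and 100 kb for 513 (45.7%) and over 100 kb for 205 (18.3%). XX-only peaks were spread around the XY list in a like way, with 31.3%, 7.17%, 44.0% and 17.5% in these classes. Few gaps of either class fell between 1 and 10 kb. The rule itself touches these distances, so they are given without a test.

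**Figure D2:**
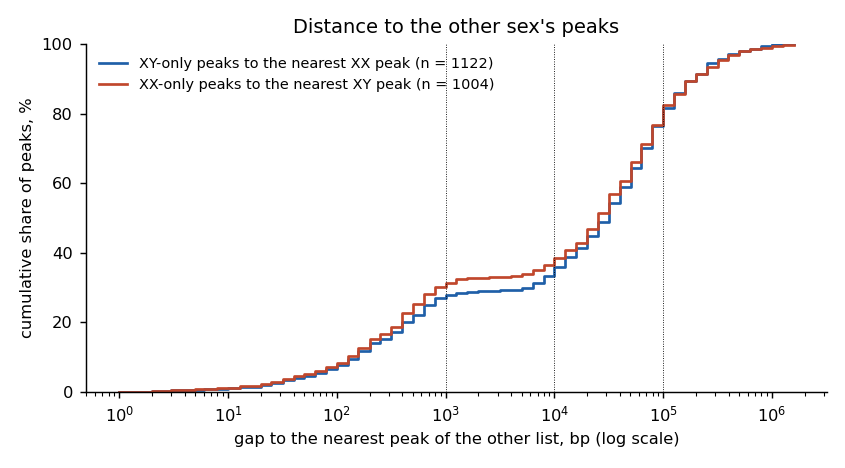
Cumulative share of peaks (vertical axis, %) by the gap to the nearest peak of the other sex's list (horizontal axis, bp, log scale), for 1122 XY-only peaks and 1004 XX-only peaks at single gene ends. Both curves climb below 1 kb, rise little up to 3981 bp (XY-only from 27.8% to 29.4%, XX-only from 31.3% to 33.4%) and climb again. At the far end, 18.3% of XY-only peaks lie over 100 kb from an XX peak.

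At the 312 peaks with an XX peak under 1 kb away, the XX peak tended to lie on the upstream side. For 202 of them the nearest XX peak was itself XX-only, and for 110 it was a shared peak. The gap was under 300 bp for 189. At 253 of the 312 a gene start gave a direction: the XX peak was upstream of the XY-only peak in 147 (58.1%, 51.8 to 64.3) and downstream in 106, with a median of 493 bp between centres. The most frequent arrangement of inside and outside, at 97 starts, had the XY-only peak inside the gene and the XX peak outside, and the opposite was seen at 48. Both were inside at 92 starts and outside at 16. As XY-only peaks lay mostly inside genes, the side of the XX peak is not independent of their position, and it was not tested. Where a peak was shared, the XY centre lay a median of 2 bp downstream of the XX centre, in the downstream direction in 51.0% of 2953 pairs and upstream in 48.2%.

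The closest neighbours had touching or almost touching peaks. A gap is counted from the edge base of 1 peak to the edge base of the next, so 1 bp means that no base lay between. At Spon1, which encodes the matrix protein F-spondin, the gap between the XY-only and the XX-only peak was 1 bp. At Kdelr1, an endoplasmic reticulum retention receptor gene, and at Ttc39b it was 2 bp. At Dennd4c, Glg1 and Mtmr4 it was 3 bp, at Cd320 and Pgls 5 bp, at Snrnp70, a U1 spliceosomal protein gene, 6 bp and at Nupl1 7 bp. Each of these genes had an XX-only peak of its own, and would count as shared with peaks under 1 kb apart taken as shared. In all, 192 genes had both an XY-only and an XX-only peak at an end, 103 had an XY-only and a shared peak, and 807 had an XY-only peak and neither of the others.

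For the larger number of genes the XX list held no peak centred at the gene. No XX peak was centred in the gene or within 1 kb of its ends for 714 of the 1122 peaks (63.6%), at 694 genes. By the same count, 662 peaks were the only peak of either list at their gene. An XX peak could still be near, as at Kmt2a (0.197 kb from an XY-only peak) and Etv1 (0.847 kb). The median gap to an XX peak over all 1122 was 26.3 kb (quartiles 0.641 and 74.6). The most isolated was at Lor, 1363 kb from the nearest XX peak, followed by Arhgef26 (957 kb), Arap2 (883 kb), Ndn (864 kb) and Prkg2 (851 kb). Next came Thsd7a (841 kb), Mkrn3 (793 kb), Cwc22 (774 kb), Peg12 (749 kb) and Rasgef1b (726 kb). Arhgef26 and Rasgef1b encode exchange factors of small GTPases, Prkg2 a cGMP-dependent protein kinase and Cwc22 a splicing factor.

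Ndn, Mkrn3 and Peg12 are neighbours on chromosome 7 and are imprinted genes expressed from the paternal allele. They lay in a stretch of 3983 kb without any XX peak, from 59229213 to 63212564. The stretch held 3 XY peaks, 1 at each of these genes, all at the gene start side: Ndn (chr7:62348213-62348512, 86 bp into the gene), Mkrn3 (chr7:62419719-62420018, 284 bp) and Peg12 (chr7:62463528-62463827, 832 bp). The stretch has 9 protein-coding genes, and Snrpn, Snurf, Magel2 and Chrna7 were among the 6 without a peak. These genes were reached by the rule on distance from XX peaks, and the stretch was described after that.

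The 23 genes with 2 XY-only peaks mostly had 1 on either side of the start. In 20 of the 23, 1 peak centre was inside and 1 outside the gene. Over all 23 the centres of a pair were 501 to 1310 bp from each other (median 729 bp). Rnf138 and Rtn4 were among the exceptions, with both peaks inside. Only 9 genes had 2 XX-only peaks at their ends. Chromatin regulators were among the 23: Kmt2a, a histone H3K4 methyltransferase, had peaks 455 bp into the gene and 819 bp upstream, and Rbbp5, a core subunit of the same complexes, 129 bp into the gene and 372 bp upstream. Kdm7a, a histone demethylase, had peaks at 479 bp into the gene and 385 bp upstream. Lcor, a corepressor of nuclear receptors, had them at 952 bp into the gene and 358 bp upstream. The Lcor peaks were 219 and 220 kb from any XX peak, while the nearest XX peak was 0.197 kb from the upstream peak of Kmt2a.

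Of the other genes with 2 peaks, Rela, the p65 subunit of NF-kappaB, had them 420 bp into the gene and 192 bp upstream. Gnaq encodes a G protein alpha subunit (701 bp into the gene, 319 bp upstream) and Ptprk a receptor tyrosine phosphatase (281 bp into the gene, 351 bp upstream). Fam20c, a secretory pathway kinase, had them 174 bp into the gene and 491 bp upstream. Also among the 23 were Appbp2, Cyp4f17, Foxj2, Gpat4, Klhl7, Lrrc3, Nudt4, Nupl1, Pkn2, Sppl3, Stt3a and Tmem170b. Except for Gnaq, Nupl1 and Ptprk, none of the 23 genes had an XX peak centred in the gene or within 1 kb of its ends.

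At the other extreme, some XY-only peaks lay in genes with many peaks. Auts2, a regulator of neuronal development, had 3 shared, 4 XX-only and 2 XY-only peaks within the gene or 1 kb of it. Zbtb7c, a zinc finger repressor gene, had 1 shared, 4 XX-only and 2 XY-only peaks. Macrod2 and Cuedc1 each had 4 shared peaks beside the XY-only one. Enox1, Pknox2, Vps13d, Arid1b, Bbx and Magi1 completed the 10 genes with most further peaks. At Auts2 the XY-only peak was 186 bp inside a gene end and 0.407 kb from an XX peak.

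Genes were read against 39 lists of pathways, families and cell type markers, which hold 212 of the 1099 genes. In 18 lists the share of genes with an XY-only peak was above the 5.32% of all autosomal protein-coding genes. The exact interval of the share lay wholly above 5.32% in 5 lists and wholly below it in 1. The 5 were WNT, FGF, RNA polymerase and general transcription factors, ubiquitin ligases and proteases, and small GTPases. The 1 below was olfactory receptors. In the other lists with a share above 5.32%, the interval held 5.32%. No list was tested for enrichment, and the all-gene share includes genes that are silent in this tissue. Distances below are from peak centre to gene end, and gaps are to the nearest XX peak.

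The WNT list had 11 of 65 genes with an XY-only peak (16.9%, 8.76 to 28.3), beside 3 with an XX-only peak and 11 with a shared one. By role, Dkk1, a secreted WNT inhibitor, had a peak 108 bp inside the gene with no XX peak for 340 kb, and Sfrp2, a secreted WNT-binding protein, had a peak 906 bp inside with a gap of 74.4 kb. Wls, which carries WNT ligands through the secretory pathway, had a peak 841 bp inside with a gap of 44.7 kb. Among receptors, Lgr5, an R-spondin receptor, had a peak 37 bp inside with a gap of 202 kb. Its relative Lgr4 had a peak 42 bp inside with an XX peak 0.720 kb away, and the coreceptor gene Lrp6 had a peak 387 bp outside with an XX peak 0.994 kb away. In the nucleus, Ctnnb1 had a peak 196 bp upstream with a gap of 330 kb.

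The remaining WNT genes were close to XX peaks with 1 exception. Tcf7l1 and Tcf7l2, transcription factors that bind beta-catenin, had XY-only peaks 609 and 917 bp inside, with gaps of 0.0310 and 0.802 kb. Pygo1, a beta-catenin coactivator gene, had a peak 292 bp inside with a gap of 0.487 kb. Apc, a scaffold of the complex that destroys beta-catenin, had a peak 711 bp inside with a gap of 26.4 kb. When peaks under 1 kb apart were taken as shared, 6 of the 65 genes (9.23%) had an XY-only peak, beside 789 (3.82%) of all genes under that definition.

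FGF genes had XY-only peaks at 5 of 29 (17.2%, 5.85 to 35.8), with 2 XX-only and 7 shared. Fgf2, a ligand, had a peak 203 bp upstream with a gap of 35.4 kb. The receptor gene Fgfr1 had a peak 105 bp inside (27.9 kb) and Fgfrl1, a receptor without a kinase domain, 717 bp inside (25.3 kb). Etv1 and Etv5, ETS factors induced by FGF signals, had peaks 112 and 233 bp upstream, with gaps of 0.847 and 174 kb. With peaks under 1 kb apart taken as shared, Etv1 would no longer count, and the other genes named would. Counting genes nearest to any XY-only peak, wherever it lay, gave 9 of the 29 (31.0%), beside 9.89% of all genes.

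The BMP and TGF-beta list had 4 of 58 (6.90%), close to the share of all genes. They were the ligand Bmp6 (124 bp upstream, 48.8 kb), the receptors Acvr2a (217 bp inside, 135 kb) and Tgfbr1 (276 bp upstream, 0.578 kb), and Smad5 (690 bp inside, 24.3 kb), which carries BMP signals to the nucleus. In the hedgehog list 1 of 22 genes had an XY-only peak, Gli2, a transcriptional effector (646 bp inside, 27.5 kb). None of 30 Notch genes did (exact upper bound 11.6%), while 8 had a shared peak.

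Retinoic acid genes had an XY-only peak at 4 of 25 (16.0%, 4.54 to 36.1), an interval that holds the 5.32% of all genes. The list was the only one of the 39 with more genes having an XY-only than a shared peak (2 of 25), on few genes. Aldh1a3 makes retinoic acid from retinaldehyde, and its peak was 62 bp inside a gene end with a gap of 29.4 kb. Rdh11 had a peak 92 bp upstream with a gap of 134 kb. Rbp4, the plasma carrier of retinol, had a peak 795 bp inside (69.8 kb). Rarg, a retinoic acid receptor, had a peak 332 bp inside (9.24 kb) and an XX-only peak in or near the gene. All 4 had a gap over 1 kb, so the count did not move when peaks under 1 kb apart were taken as shared.

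The androgen and estrogen list had 4 of 31 (12.9%, 3.63 to 29.8). They included Fkbp4, a co-chaperone of steroid receptors (321 bp inside, 0.0620 kb), and Ncor1, a nuclear receptor corepressor (460 bp inside, 0.468 kb). The others were Igf2r (175 bp upstream, 20.4 kb) and Sfrp2, counted above under WNT. Igf2r, which clears insulin-like growth factor 2, and Sfrp2 are not steroid receptor partners. With peaks under 1 kb apart taken as shared 2 of the 31 were left (6.45%, beside 3.82% of all genes), Igf2r and Sfrp2 having the gaps over 1 kb. Of 27 Wolffian duct regulators 2 had an XY-only peak (7.41%), Ctnnb1 and Etv5, and of 25 Müllerian duct regulators 2 (8.0%), Hoxa13 (758 bp inside, 380 kb) and Smad5.

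Among 54 factors of the mesonephric mesenchyme only Zfpm2, a GATA cofactor, had an XY-only peak (1.85%), 450 bp inside a gene end and 0.398 kb from a shared peak, while 9 of the 54 had a shared peak. This count depended on the window: 3 of the 54 had one within 2.5 kb (5.56%, beside 5.65% of all genes), and 11 were nearest to an XY-only peak anywhere (20.4%, beside 9.89% of all genes). Of 40 nuclear receptors, Nr1h2 and Rarg had one (5.0%). Of 39 Hox genes, Hoxa13 and Hoxd8 (101 bp inside, 11.0 kb) did. Collagens, laminins and matrix proteins had 3 of 83 (3.61%): Col3a1, a fibrillar collagen, 31 bp upstream with no XX peak for 483 kb, Col5a1 (515 bp inside, 67.8 kb) and Lamc1 (445 bp inside, 0.0840 kb).

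Markers of other cells that a mesonephros preparation could hold had XY-only peaks at shares near that of all genes, or had none. There was 1 each among 25 gonadal somatic markers (4.0%, Dmrt1, 387 bp inside, 431 kb), 20 endothelial markers (5.0%, Esam), 20 blood and immune markers (5.0%, Spi1) and 17 neuronal genes (5.88%). None was found among 15 germ cell markers (exact upper bound 21.8%) or 23 liver plasma protein genes (14.8%). Of 1104 olfactory receptor genes, 0 had a peak of any class at an end (exact upper bound 0.334%). Among 23 smooth muscle contractile genes 1, Tagln2, had an XY-only peak, and among 41 forkhead genes 1, Foxj2. Binding at a gene does not show that the gene is expressed, so these counts do not measure which cells were present.

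Regulators of transcription and protein turnover held many of the genes by number. The ubiquitin ligase and protease list had 38 of 370 (10.3%), with 30 XX-only and 97 shared. RNA polymerase, Mediator and general transcription factors had 14 of 125 (11.2%), with 10 XX-only and 40 shared. Among the 14 were Polr2c (37 bp inside, 190 kb) and Polr2e (78 bp upstream, 13.8 kb), subunits of RNA polymerase II. Med21, Med27, Med6 and Med9 of the Mediator complex also had one, and the XX peak nearest to Med6 was 9 bp away. Proteasome genes had 5 of 47 (10.6%, 3.55 to 23.1), with 3 XX-only and 13 shared. The 5 were Psmc3, Psmd1, Psmd7, Psme4 and Psmg3, with gaps from 16.1 to 152 kb.

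The cell cycle and DNA replication list had XY-only peaks at 10 of 98 genes (10.2%), about as many as the 11 with an XX-only peak. Mcm5 and Mcm6, subunits of the replicative helicase, had peaks 285 and 77 bp inside, with gaps of 75.6 and 57.2 kb. Cdk2, an S phase kinase, had a peak 332 bp inside (8.46 kb), and the kinase inhibitor gene Cdkn1b had one 291 bp upstream (8.09 kb). Mad2l1 and Bub1b, of the spindle checkpoint, had peaks 329 bp inside (361 kb) and 245 bp inside (64.7 kb). Ccne1, Ccng1, Ccnt2 and Cdkn2c were the other 4 on the list.

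Histone methylation enzymes had 6 of 61 (9.84%, 3.70 to 20.2), and 25 of the 61 had a shared peak. Besides Kmt2a and Kdm7a these were Jarid2, a partner of Polycomb repressive complex 2, the demethylase genes Kdm3a and Kdm8, and the H4K20 methyltransferase gene Kmt5a. Zbtb zinc finger genes had 5 of 40 (12.5%, 4.19 to 26.8), beside 1 with an XX-only peak and 12 with a shared one. The 5 were Zbtb7b, Zbtb7c, Zbtb8a, Zbtb10 and Zbtb24. Of 43 Sox, Klf and Sp factors 4 were Klf genes and none a Sox gene: Klf4 (903 bp upstream, 108 kb), Klf5 (88 bp outside, 156 kb), Klf6 (483 bp upstream, 0.334 kb) and Klf14 (624 bp inside, 61.8 kb).

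Respiratory chain genes had XY-only peaks at 2 of 107 (1.87%: Cox6b1 and Ndufs7) and shared peaks at 46 (43.0%, beside 17.6% of all genes). The list of cytosolic ribosomal proteins had 3 of 79 (3.80%: Rpl37a, Rpl7l1 and Rps13) and 33 shared. Mitochondrial ribosomal proteins had 2 of 77 (Mrps26 and Mrpl58) and 26 shared, and translation factors had 2 of 70 (Eif2b3 and Eif3a) and 29 shared. The 3 peaks of the cytosolic ribosomal list lay 178 to 199 bp into the gene. tRNA synthetases had 4 of 35 (11.4%, 3.20 to 26.7: Gars, Iars, Mars1 and Sars) and 5 shared.

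Solute carriers, Zfp and Tmem genes were near the share of all genes. Solute carriers had 17 of 348 (4.89%), Zfp genes 20 of 388 (5.15%) and Tmem genes 12 of 231 (5.19%). Splicing factors had 10 of 148 (6.76%), among them Snrpg, Lsm2, Prpf19 and Prpf39. Small GTPases and their exchange factors had 17 of 176 (9.66%) with XY-only and as many with XX-only peaks, and 11 of 176 (6.25%, beside 3.82% of all genes) when peaks under 1 kb apart were taken as shared.

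**Figure D3:**
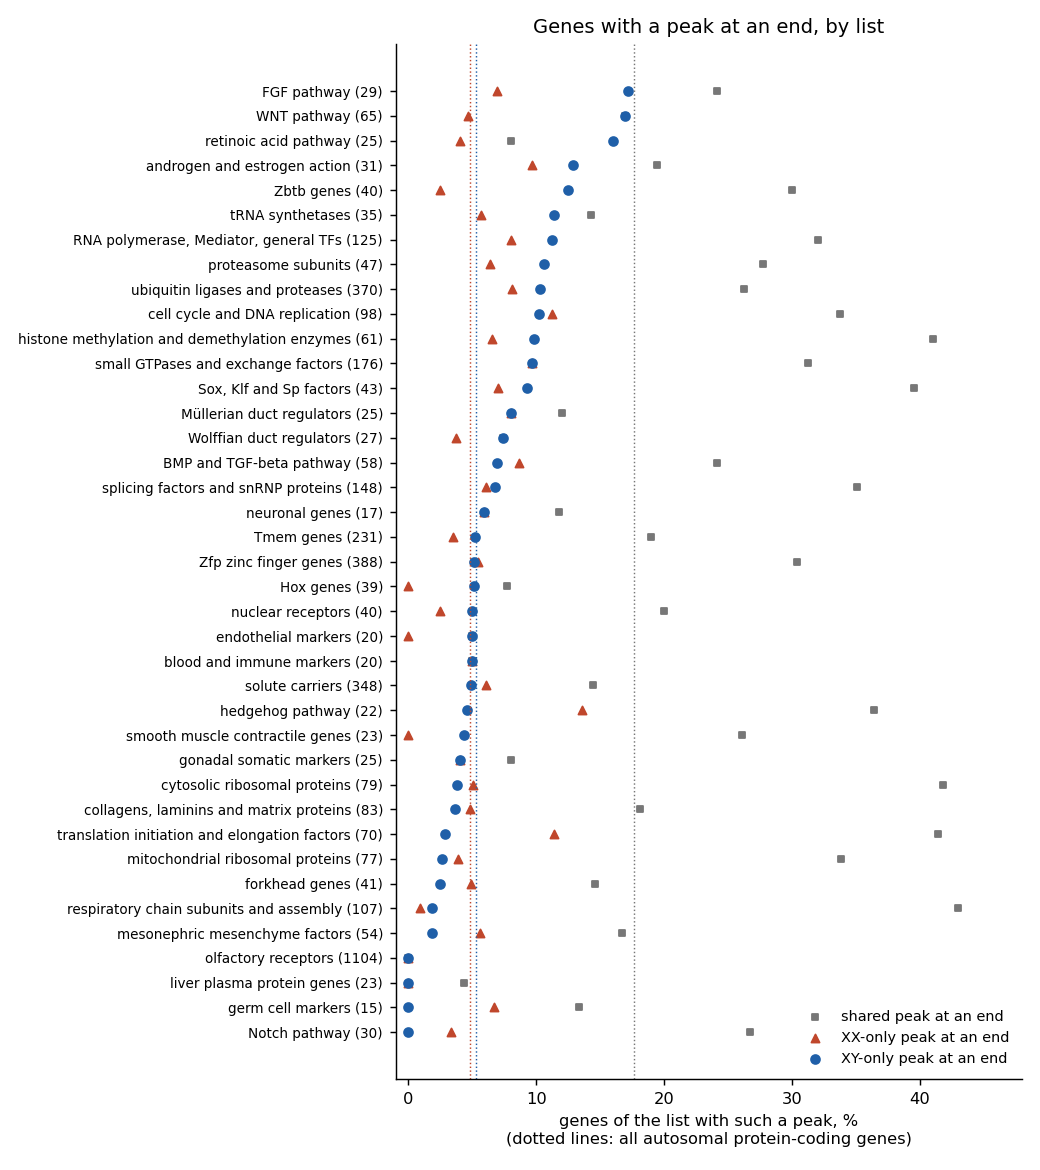
Share of the autosomal genes of each list (horizontal axis, %) with an XY-only (circle), XX-only (triangle) or shared (square) peak at an end, the number of genes in brackets, and dotted lines for all autosomal protein-coding genes (5.32%, 4.81% and 17.6%). FGF, WNT and retinoic acid genes have the highest XY-only shares (17.2%, 16.9% and 16.0%). Their exact intervals are wide (5.85 to 35.8, 8.76 to 28.3 and 4.54 to 36.1), and that of retinoic acid holds 5.32%. The retinoic acid list is the only one whose XY-only share exceeds its shared share, at 4 against 2 genes. Where values are equal, the circle covers the other marks.

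The DNA at these starts was searched for 14 short motifs in the RefSeq start window, 300 bases from 250 before to 50 after the start, on both strands. A window was used where at least 150 bp of it was under the peak, which left 193 windows of XY-only, 837 of shared and 213 of XX-only peaks. AGGTCA was found in 21 of the 193 XY-only windows (10.9%, 6.86 to 16.2), in 180 of 837 shared windows (21.5%, 18.8 to 24.4), in 18.8% of XX-only windows and in 14.6% of all 16457 windows. The odds ratio against shared windows was 0.446 (0.261 to 0.729, two-sided Fisher's exact test, adjusted p = 0.0161 over 28 tests). Against XX-only windows it was 0.529 (0.284 to 0.962) and did not pass (exact test, adjusted p = 0.196). With peaks under 1 kb apart taken as shared the first difference did not pass the exact test either, at 14.4% of 139 windows against 20.3% (odds ratio 0.660, adjusted p = 0.589), nor with at least 200 bp under the peak, at 12.2% of 115 windows against 23.2% (0.459, adjusted p = 0.182).

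No other motif passed the threshold in this search. The related hexamer GGGTCA was in 17.1% of XY-only, 25.8% of shared (exact test, adjusted p = 0.163) and 18.3% of XX-only windows, and in 13.6% of all windows. Its difference from shared windows passed the exact test in 3 other searches: in the part of the window under the peak (adjusted p = 0.0346), and with at least 1 bp (0.0248) or 100 bp (0.0370) under the peak. At least 1 of both hexamers was present in 25.4% of XY-only windows, 42.4% of shared, 33.3% of XX-only and 26.0% of all windows. A direct repeat of them with 0 to 5 bases between was rare everywhere. It was in 1 XY-only (0.518%), 7 shared (0.836%) and 2 XX-only windows (0.939%), beside 0.292% of all windows. The XY-only repeat lay at least partly outside its peak.

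The XY-only windows otherwise had the composition of bound promoters in both lists. Their median GC content was 64.0% and their median CpG count 25.0 per window, against 64.7% and 26.0 in shared windows, 63.3% and 23.0 in XX-only windows, and 56.7% and 14.0 in all windows. The GC box GGGCGG was in 67.9% of XY-only, 74.1% of shared, 70.4% of XX-only and 46.8% of all windows. The ETS core CCGGAAG was in 19.2%, 26.8%, 21.1% and 12.2%. The TATA box TATAAA was in 6.22%, 4.54% and 7.04% of bound windows against 13.5% of all. The windows cover only peaks near or before the start, so they leave out most XY-only peaks, which lay downstream.

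**Figure D4:**
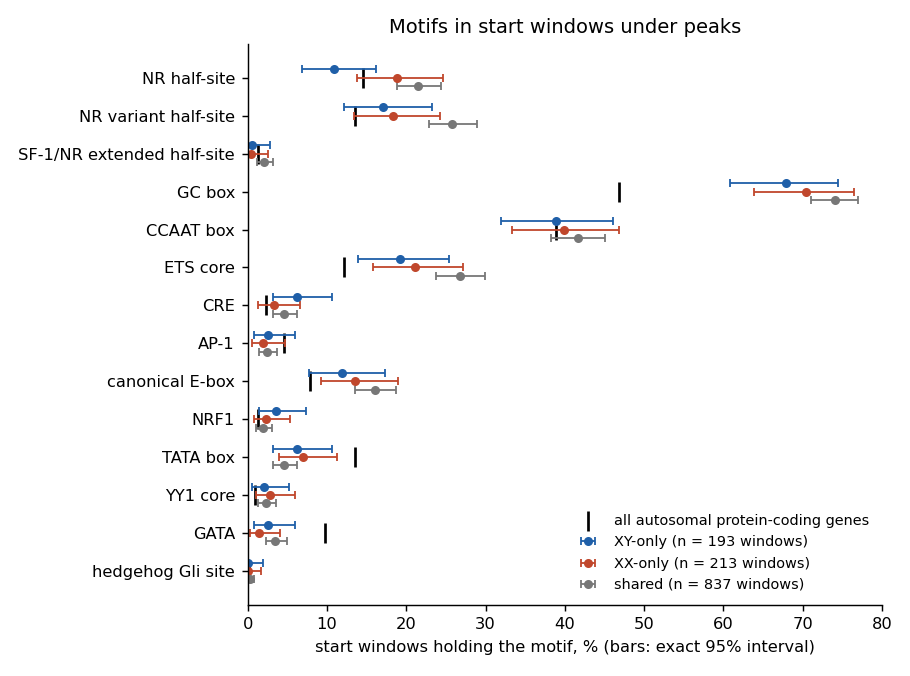
Share of start windows holding each of 14 motifs (horizontal axis, %, with exact 95% intervals) for 193 XY-only, 213 XX-only and 837 shared windows, with black ticks for all autosomal protein-coding genes. AGGTCA (top row, NR half-site) is at 10.9% in XY-only and 21.5% in shared windows, and GGGTCA (second row) at 17.1% and 25.8%.

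XY-only peaks were spread over the autosomes. As a share of XY peaks at single gene ends they ranged from 16.0% on chromosome 18 (10.5 to 22.9) to 26.6% on chromosome 2. The interval held the pooled 23.0% on 18 of the 19 autosomes, chromosome 18 being the exception.

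**Figure D5:**
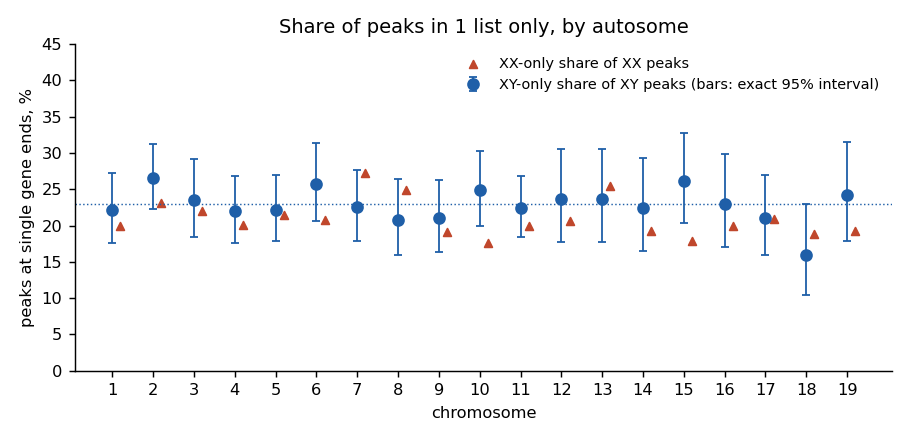
Share of XY peaks at single gene ends that are XY-only (circles, %, with exact 95% intervals) and of XX peaks that are XX-only (triangles) on each autosome, with the pooled XY-only share of 23.0% dotted. Chromosome 18, at 16.0%, has the lowest XY-only share, and its interval ends just below the dotted line.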

How the data were processed

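The authors deposited 2 peak lists, 1 for XX and 1 for XY mesonephroi, each named in the labels of both samples of that sex. The deposited files hold peak positions only (chromosome, start and end), with no score or other measured value. Per the submitters' processing notes, the build was mm10 and the software included HOMER 4.10.3, Bowtie 1.2, bedtools 2.24.0, Picard and cutadapt. The role of each tool and the peak threshold were not given in the sources used here. Extraction text in the labels names RUNX1 and fetal ovaries, while titles, tissue and antibody name COUP-TFII and mesonephroi, which were used. Input and signal tracks were not analysed here.

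Overlaps were computed in Python 3.11.15 and checked against bedtools 2.31.1. Genes (49943, of which 21887 are protein-coding) and start windows came from RefSeq tables of GRCm38.p6. A start window, and with it a strand, was matched for 16457 autosomal protein-coding genes (79.6%) and for 891 of the 1099 genes with an XY-only peak. No genome sequence was used, so peak sequence outside these windows was not searched. Shared peaks carry XY positions and XX-only peaks XX positions, but counts of genes with a shared peak used the positions of either list. Classes were set against each other with Fisher's exact test, two-sided (scipy 1.17.1), with conditional odds ratios and Benjamini-Hochberg adjustment at 0.05, over 8 tests of position and 28 of motifs. The tests were tested on simulated data.

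The peaks, gene lists and tests were chosen with earlier results of these data known. Named genes are those with 2 XY-only peaks, the 10 farthest from and 10 nearest to an XX peak, up to 4 per gene list nearest to the gene end, the 5 just inside and outside the window, and the 10 genes with most further peaks. For sequences the rule took peaks with a direct repeat in the part of the start window under the peak, of which there were none (the direct repeat counted in the report lay at least partly outside its peak), and the 4 peaks nearest to a gene end. Other list members and sequences are examples chosen after their values were seen, as was the minimum of 150 bp of window under a peak. A few genes covered by these rules are not reported here.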

Additional observations from a re-analysis of the deposited data

How the results depend on the processing

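Of the main results under the alternatives, 83 kept their direction and side of the threshold or stayed within their interval, 12 moved, 4 lost the threshold, 1 passed it and 5 changed direction. No difference that passed the threshold changed direction. The share of XY peaks at single gene ends that were XY-only (23.0%) was 28.2% when at least 50% of each peak had to be in common, 34.7% with centres within 100 bp (a count of 1695 in place of 1122), 16.6% with peaks within 1 kb as shared, 21.7% with a 500 bp window and 21.8% with at least 1 protein-coding gene. The odds ratio of lying inside the gene, against shared peaks, was by the exact test 1.20 (adjusted p = 0.0527) with 50% in common and 1.21 (adjusted p = 0.108) with a 500 bp window. Against XX-only peaks, lying at the start had an exact-test odds ratio of 2.30 (adjusted p = 7.18e-04) with a 2.5 kb window. AGGTCA against shared peaks had an exact-test odds ratio of 0.660 (adjusted p = 0.589) with peaks within 1 kb as shared and 0.459 (adjusted p = 0.182) with at least 200 bp of window under the peak, and in both searches fewer windows were tested. The number of motifs that passed against shared peaks, 1 in the report, was 0 with peaks within 1 kb as shared and 0 with at least 200 bp, and 2 with only the part under the peak searched, 2 with at least 1 bp and 2 with at least 100 bp. These searches by bp under the peak were chosen after seeing the data. Taking genes nearest to any XY-only peak gave 2043 genes (9.89%) in place of 1099. Among single motifs and lists, 201 values stayed, 43 moved, 3 passed the threshold and 20 changed direction. The changes of direction were all odds ratios that passed under no setting in that comparison: within 100 bp against XX-only peaks, 0.994 with 50% in common and 0.979 with centres within 100 bp; a noncoding end within 1 kb, 1.02 (shared, centres within 100 bp), 1.04 (shared, at least 1 gene) and 0.993 (XX-only, peaks within 1 kb as shared). Against shared windows they were 1.09 (CCAAT), 0.866 (AP-1) and 0.941 (TATA) from 150 bp before the start, 0.551 (AP-1) and 1.11 (GATA) with peaks within 1 kb as shared, 0.941 (TATA) and 1.09 (YY1) under the peak only, 0.975 (CRE and AP-1 alike) at 1 bp and 0.820 (AP-1) at 100 bp. Against XX-only windows they were 1.16 (CCAAT) from 150 bp before the start, 0.682 (AP-1) with peaks within 1 kb as shared, 1.12 (GC box), 1.08 (ETS) and 1.48 (YY1) under the peak only, 1.03 (ETS) and 0.674 (GATA) at 1 bp, and 1.03 (GGGTCA), 1.01 (CCAAT) and 0.694 (GATA) at 100 bp. Most of the moved list counts came with genes nearest to any XY-only peak. No paired analysis was possible because each sex has 1 peak list over both samples. For the same reason no sample could be left out, and without scores no stricter threshold was tried. Depth is unknown, so how far it limits either list cannot be given.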

Other observations

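After Ndn, Mkrn3 and Peg12 had been seen among the most isolated peaks, a list of 73 autosomal imprinted genes was drawn up, so its count supports nothing and was not tested. An XY-only peak stood at an end of 10 of the 73 (13.7%, beside 5.32% of all genes), an XX-only peak at 5 and a shared peak at 11. Besides these 3 the genes were Igf2r, Grb10, Plagl1, Herc3, Zrsr1, Dlx5 and Klf14. Grb10, an adaptor that dampens growth factor receptors, had an XY-only peak 481 bp upstream, 0.353 kb from an XX-only peak. Plagl1, a zinc finger transcription factor gene, had one 142 bp inside, 0.0440 kb from an XX-only peak. At Herc3 (531 bp inside) the nearest XX peak was 191 kb away, at Dlx5 (489 bp inside a gene end) 74.1 kb and at Zrsr1 (310 bp inside) 9.58 kb. XX-only peaks stood at Begain, Grb10, H13, Inpp5f and Plagl1, so Grb10 and Plagl1 had a peak of each kind.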
